A study of Homo sapiens with 2 samples.

Results

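The kallikrein genes (KLK) encode a family of secreted serine proteases that lie next to each other on chromosome 19. The 10 genes described here, KLK1, KLK2, KLK3, KLK4, KLK5, KLK6, KLK10, KLK11, KLK14 and KLK15, were taken by symbol from a gene count table that lists 60671 genes. They were measured in C4-2B, a cell line of castration-resistant prostate cancer (CRPC), kept in medium with fetal bovine serum. One culture was treated with vehicle and another overnight with 1 µM (R)-9b, a small-molecule inhibitor of the tyrosine kinase ACK1, which is encoded by TNK2. Each condition had 1 library, so the spread between cultures was not measured, no p-value is given, and every comparison below is between 2 libraries of a single cell line.

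Kallikreins are made as inactive precursors and become active when a short propeptide is cut off, in several cases by another kallikrein. In prostate epithelium KLK2, KLK3 and KLK4 are induced by androgen. The product of KLK3 is prostate-specific antigen (PSA), which cleaves the semenogelins of the seminal clot and whose blood level is used to follow prostate cancer. Other members are better known elsewhere, KLK1 in kinin release in kidney and pancreas, KLK5 and KLK14 in shedding of the outer skin, and KLK6 in the nervous system.

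The vehicle library held 65207444 gene counts, and its (R)-9b counterpart 57653965. Mitochondrially encoded genes took 1.49% of the vehicle and 9.54% of the (R)-9b counts. With these genes left out of the TMM scaling the ratio of KLK2 stayed at 1.44 and that of KLK3 at 1.26. Scaling by total counts in place of TMM lowered each log2 ratio by 0.06. The labels call C4-2B a breast cancer line, against the paper. All 6 prostate luminal markers reported here were present, with 123998 summed counts in vehicle and 155066 in (R)-9b. The 3 basal markers summed to 35 and 18 counts, and TP63 was at 0 in both. The 6 breast markers summed to 208 and 637 counts, most of them from PIP, which is also an androgen-regulated gene, with 124 and 595 counts. SCGB2A2 was at 0 in both libraries, and ESR1 had 2 counts in each. The 4 immune markers summed to 2 counts in each library, and the 5 stromal and endothelial markers to 1250 and 2106, of which COL1A1 held 1114 and 2004.

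The promoters of KLK3 and KLK2 are shown because these genes differed most between the libraries and both carry a known androgen response element. RefSeq sequence of GRCh38.p14 was matched by symbol for 9 of the 10 genes, all but KLK1, in 15 promoter windows. The windows printed are the 250 bases before the RefSeq start, on the plus strand, at chr19:50854665-50854914 for KLK3 and chr19:50873189-50873438 for KLK2. Capitals mark a 15-base element, at positions -170 to -156 in KLK3 and -176 to -162 in KLK2, where -1 is the base before the start.
KLK3: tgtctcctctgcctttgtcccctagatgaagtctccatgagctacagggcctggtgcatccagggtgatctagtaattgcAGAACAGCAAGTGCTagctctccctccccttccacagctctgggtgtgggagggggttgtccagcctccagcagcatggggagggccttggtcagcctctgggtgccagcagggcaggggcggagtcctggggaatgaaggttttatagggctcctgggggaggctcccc
KLK2: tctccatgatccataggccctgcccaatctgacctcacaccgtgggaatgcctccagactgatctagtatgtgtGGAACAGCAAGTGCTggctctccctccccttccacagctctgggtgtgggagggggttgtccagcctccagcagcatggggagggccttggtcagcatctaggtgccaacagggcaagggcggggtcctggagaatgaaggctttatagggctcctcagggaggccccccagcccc

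The KLK2 and KLK3 windows were 79.2% identical in a global alignment. The windows of the other members were 43.7% to 49.3% identical to that of KLK3. The KLK2 element differed from the KLK3 element by A1G, with positions counted from 1 at the 5′ end of the element. Set against the palindrome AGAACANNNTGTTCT of steroid hormone response elements, the KLK3 element had T10A and T13G, and the KLK2 element A1G, T10A and T13G. Motifs were searched on both strands of 35116 RefSeq promoter windows of 300 bases, from 250 before to 50 after the start. The hexamer AGAACA, which is the first arm of the palindrome, was found in 14.8% of all windows and in 1 of the 15 kallikrein windows, that of KLK3. The full palindrome was in 0 of the 15. The 14 bases GAACAGCAAGTGCT, shared by both elements, were read from the windows of KLK2 and KLK3, so their presence there was given. They were in no other window among the 35116. Other 14-base stretches that both windows share were not searched. TATAA, on either strand, was in 7 of the 15 kallikrein windows and in 20.4% of all windows. The 7 belong to KLK2, KLK3, KLK4, KLK5, KLK14 and KLK15. Some windows of the same gene overlap, as for KLK10 and KLK14, so the 15 are not separate promoters. These matches describe the letters of the windows, and binding was not measured.

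KLK3, KLK2 and KLK4 were the abundant members, and all 3 were higher in the (R)-9b library. KLK3 had the largest count and KLK2 the largest ratio. The other 7 genes together held 0.235% of the family's counts in vehicle and 0.123% in (R)-9b. For each gene below, the count in each library is followed by the log2 ratio of (R)-9b to vehicle after TMM scaling. The exact (Clopper-Pearson) 95% interval of a ratio covers counting error only, with each count taken as independent. It is too narrow if both reads of a pair were counted. A gene is called higher or lower where this interval lies wholly above or below 0. In a bulk library, more RNA per cell and more cells with the RNA cannot be told apart.

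KLK3 (ENSG00000142515) lies on the plus strand of chromosome 19 from 50854915 to 50860764 in the GENCODE 29 annotation of GRCh38. It had 146597 counts in vehicle and 297728 in (R)-9b. After normalization to CPM (the count as a rate over the TMM-scaled library total) this was 2202 and 5273, respectively. The log2 ratio was 1.26 (95% interval 1.25 to 1.27), or 2.39-fold. By count, KLK3 was the 26th gene in vehicle and the 11th after (R)-9b.

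KLK2 (ENSG00000167751), from 50861568 to 50880567 on the same strand, encodes a trypsin-like protease that can activate the PSA precursor. KLK2 had 19192 counts in vehicle and 44253 in (R)-9b, or 288 and 784 normalized CPM. The log2 ratio was 1.44 (95% interval 1.42 to 1.47), a 2.72-fold difference and the largest in the family among genes with a ratio. KLK4 (ENSG00000167749), from 50906352 to 50910738 on the minus strand, encodes a protease known from enamel maturation as well as prostate. It had 17971 counts in vehicle and 23219 in (R)-9b, or 270 and 411 normalized CPM. The log2 ratio was 0.61 (95% interval 0.58 to 0.64), or 1.52-fold, below that of both KLK2 and KLK3.

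KLK15 (ENSG00000174562), from 50825289 to 50837213 on the minus strand, encodes a protease that can also activate the PSA precursor. It had 383 counts in vehicle and 378 in (R)-9b, and the smaller scaled size of the (R)-9b library gave a log2 ratio of 0.22 (95% interval 0.01 to 0.43). KLK1 (ENSG00000167748), the tissue kallikrein that releases kinin from kininogen, lies on the minus strand from 50819148 to 50823787. It had 33 counts in vehicle and 45 in (R)-9b, a log2 ratio of 0.69 (95% interval 0.01 to 1.38). Both intervals only just cleared 0 and included it with total counts, DESeq2 size factors, halved counts, estimated transcript counts or an added coefficient of variation of 0.1. With estimated transcript counts the KLK15 ratio changed sign, to -0.12 (95% interval -0.50 to 0.26).

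The members known from skin, brain and other epithelia were at the edge of detection. KLK14 had 9 counts in vehicle and 15 in (R)-9b, and its log2 ratio of 0.97 had a 95% interval of -0.31 to 2.35. KLK5 had 4 and 6 counts and a log2 ratio of 0.82 (95% interval -1.25 to 3.09). A difference in either gene was not detectable at this depth. KLK6 had 2 and 3 counts, KLK10 1 and 3, and KLK11 1 and 1. These 3 genes were under the minimum of 10 counts over both libraries, and with at most 3 counts in each library no ratio was formed. KLK5 shares 202 exon bases with an antisense gene, KLK6 shares 401 and KLK10 shares 240, but both antisense genes, AC011483.2 and AC011473.2, had 0 counts in each library.

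**Figure D1:**
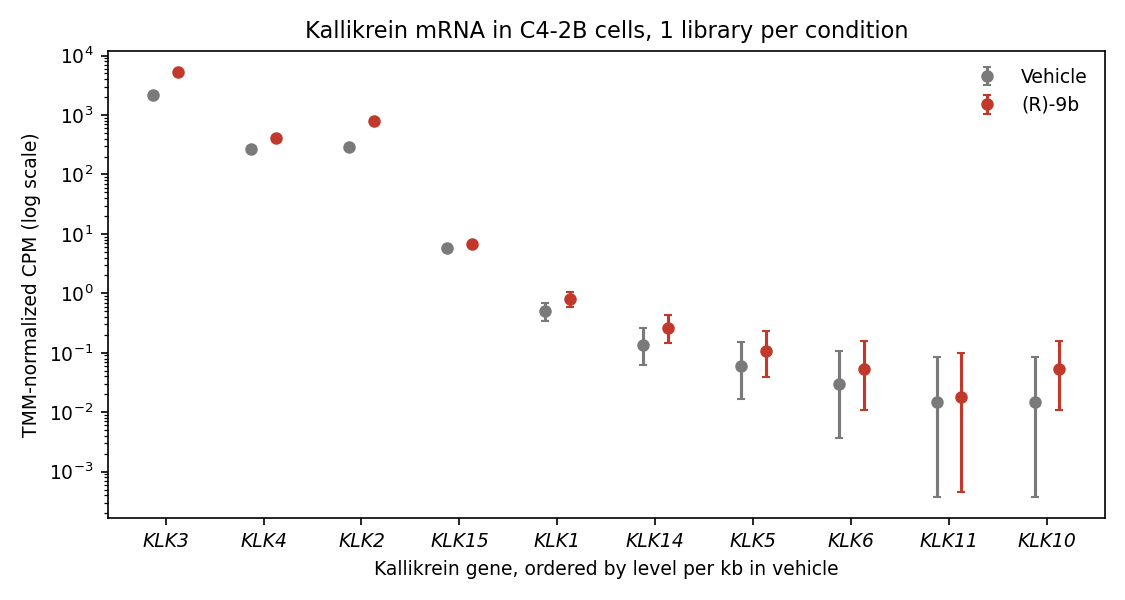
TMM-normalized CPM (y axis, log scale) of the 10 kallikrein genes (x axis, ordered by level per kb in vehicle), with 1 point per library and bars for the exact 95% Poisson interval. KLK3, KLK4 and KLK2 sit between 270 and 5273 CPM and are higher in (R)-9b, whereas the bars of both libraries overlap for KLK1, KLK15 and the 5 lowest genes.

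Levels were compared between genes as normalized CPM per kb of exon, since the genes differ in length. KLK3 stood highest, at 475 per kb in vehicle and 1137 in (R)-9b, which placed it 56th and 21st among 58453 genes with an annotated length. KLK4 followed with 139 and 213 per kb, at places 278 and 142. KLK2 had 45.1 and 123 per kb, at places 1073 and 294, because its annotated exons span 6.39 kb against 1.94 kb for KLK4. KLK15 had 2.51 per kb in vehicle and 2.92 in (R)-9b. KLK1 had 0.208 and 0.335 per kb, and KLK14 had 0.114 and 0.223. KLK5, KLK6, KLK10 and KLK11 were at or below 0.0643 per kb in both libraries. The Poisson intervals of neighbours in this order were apart from KLK3 down to KLK1. They overlapped between KLK1 and KLK14, between KLK14 and KLK5, and among KLK5, KLK6, KLK10 and KLK11.

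Of the 10 genes, 7 passed the minimum of 10 counts. The interval lay above 0 for 5 of them, KLK1, KLK2, KLK3, KLK4 and KLK15, against 29.8% of all 23446 genes tested. It lay below 0 for 0 of the 7, against 31.1% of all genes. It lay wholly above 2-fold for KLK2 and KLK3, against 4.2% of all genes, and wholly below 2-fold lower for 0, against 3.44%. Under the 5 alternatives at which KLK1 and KLK15 no longer cleared 0, 3 genes were higher, and with the added coefficient of variation 1 gene, KLK2, stayed wholly above 2-fold. The median log2 ratio of the 7 was 0.82, whereas that of all tested genes was -0.0049. This median of 0.82 is the value of KLK5 itself, which had 4 and 6 counts and an interval that included 0. Narrow intervals clear 0 easily in abundant genes, so the abundant members were also set beside the 959 genes with at least 10000 counts in both libraries. In that set 44.5% of genes were higher and 47.2% lower, and KLK2, KLK3 and KLK4 were all among the higher. Only 2.29% were wholly above 2-fold, which held for KLK2 and KLK3. By the size of the log2 ratio, KLK2 ranked 16th, KLK3 18th and KLK4 66th of the 959.

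Together the 10 genes held 0.282% of the vehicle counts (exact 95% interval 0.281% to 0.284%) and 0.634% of the (R)-9b counts (0.632% to 0.636%). With mitochondrially encoded genes left out of the total, the shares were 0.287% and 0.701%. KLK3 alone made up 79.6% of the family in vehicle and 81.4% in (R)-9b. KLK2 went from 10.4% to 12.1%, and KLK4 from 9.76% to 6.35%.

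Ratios between members within a library do not depend on how the libraries are scaled. There were 0.131 KLK2 counts per KLK3 count in vehicle and 0.149 in (R)-9b, a log2 difference of 0.18 (exact conditional 95% interval 0.16 to 0.21). KLK4 moved the other way relative to its neighbours. There were 0.123 KLK4 counts per KLK3 count in vehicle and 0.078 in (R)-9b, a log2 difference of -0.65 (-0.68 to -0.62). Against KLK2, KLK4 went from 0.936 to 0.525, a log2 difference of -0.84 (-0.87 to -0.80). KLK15 lost ground against KLK3 by a log2 difference of -1.04 (-1.25 to -0.83) and against KLK4 by -0.39 (-0.60 to -0.18). By counting error alone, KLK2, KLK3, KLK4 and KLK15 thus differed in unequal amounts between the 2 libraries, in that order. KLK1 was not set in these ratios. With an added coefficient of variation of 0.1, the 95% intervals of the log2 ratios overlapped between KLK2 (1.04 to 1.84) and KLK3 (0.86 to 1.66). They also overlapped between KLK3 and KLK4 (0.21 to 1.01), and between KLK4 and KLK15 (-0.23 to 0.67).

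KLK2 and KLK3 are close paralogs, so reads could in principle be split between them. Of the 1314 stretches of 150 bases, the read length, in the transcript KLK3-201, 0 were also in a transcript of another kallikrein gene, and the same held for 0 of 2698 in KLK2-202. At 30 bases, 61 stretches were shared between KLK2 and KLK3, which is 4.25% of KLK3-201 and 2.16% of KLK2-202. The search covers exact matches of these transcripts only, and KLK2-202 held 13.5% and 11.2% of the estimated KLK2 transcript counts. It cannot show whether reads from other forms, or reads with mismatches, were split. The genes nearest in log2 ratio to KLK3, among 944 other protein-coding genes with at least 10000 counts in both libraries, were THBS1 (1.24) and SORD (1.22). KLK3 itself and THBS1 were among the 3 nearest to KLK2. Likeness here is the distance of 1 ratio from another over 2 libraries.

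The transcript table, which holds estimated counts, was used to see which annotated forms made up each gene. Such estimates carry an error of read assignment that the table does not give. For KLK3 the estimates summed to 54286 in vehicle and 108922 in (R)-9b, over 16 transcripts. KLK3-201, the reference coding form, held 48.3% of them in vehicle and 40.9% in (R)-9b. All coding forms together went from 75.9% to 69.7%, and forms annotated as retained intron from 22% to 28.1%. KLK3-209, an exon of which spans intron 3 of KLK3-201, was the largest retained-intron form, with 16.2% and 15.6%. The higher share came from others. KLK3-213, which spans intron 1, was estimated at 2138 and 8062 counts. KLK3-215, which reaches into intron 2, had 849 and 4289, and KLK3-205, likewise in intron 2, had 170 and 1362.

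Retained-intron forms held most of the KLK2 estimates in both libraries, 67.3% in vehicle and 75.4% in (R)-9b, over sums of 6911 and 15415. The leading forms were KLK2-207, which reaches into intron 2 of KLK2-202, with 34.2% and 37.1%, and KLK2-220, which spans intron 3, with 29.5% and 27%. The coding forms of KLK2 held 15.4% in vehicle and 12.9% in (R)-9b. Forms annotated for nonsense-mediated decay went from 14.6% to 10.3%, and did not move together, since the largest of them went from an estimated 638 to 310 while another went from 109 to 935. KLK4 was steadier. Its coding forms held 67.7% and 67%, and its retained-intron forms 17.9% and 19.6%, and of the 2 forms that span intron 3, KLK4-204 went from 9.25% to 14.6% of the gene and KLK4-207 from 8.61% to 4.97%. KLK15 had sums of 137 and 106. Its main coding form KLK15-201 had an estimated 109 in vehicle and 45.3 in (R)-9b, whereas the retained-intron form KLK15-206 had 3.81 and 39.1. The KLK1 estimates, 11 and 16 in sum, were too few to divide.

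**Figure D2:**
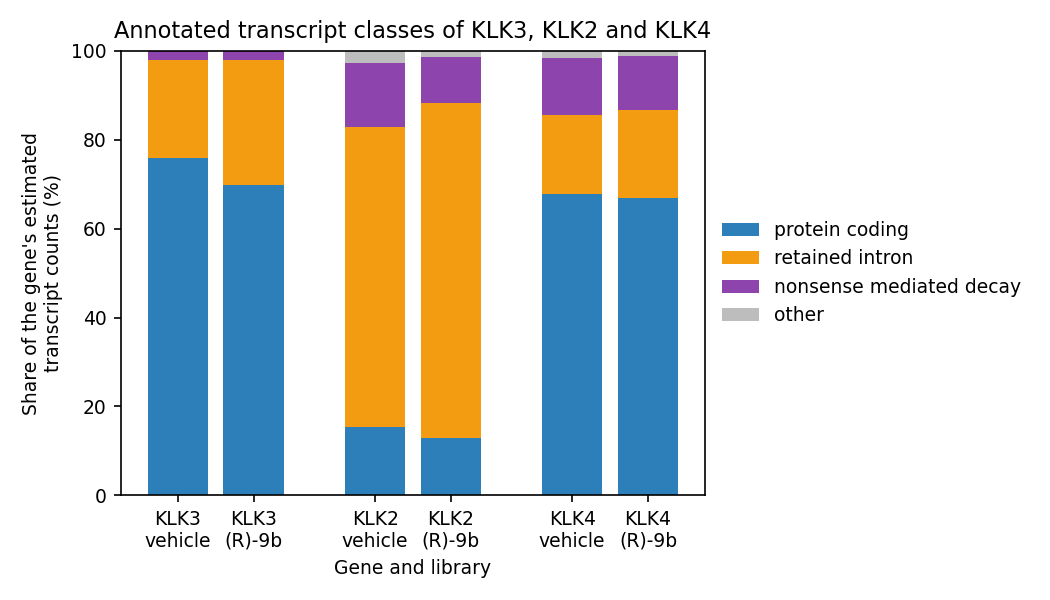
Share of each gene's estimated transcript counts (y axis, percent) by annotated transcript class, for KLK3, KLK2 and KLK4 in the vehicle and (R)-9b libraries (x axis). The retained-intron part is larger in (R)-9b for KLK3 (22% and 28.1%) and KLK2 (67.3% and 75.4%) and nearly level for KLK4 (17.9% and 19.6%).

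The retained-intron share also differed between the libraries outside the family. Over 2475 genes with such a form and an estimated count of at least 1000 in both libraries, the summed share was 5.88% in vehicle and 7.2% in (R)-9b. The share was higher in (R)-9b in 1754 of them, and the median change was 0.408 percentage points. The change was 6.18 points for KLK3, and 8.2% of these genes had a change at least as high. For KLK2 it was 8.08 points, with 5.17% of genes at or above it, and for KLK4 it was 1.73 points, with 26.5%.

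**Figure D3:**
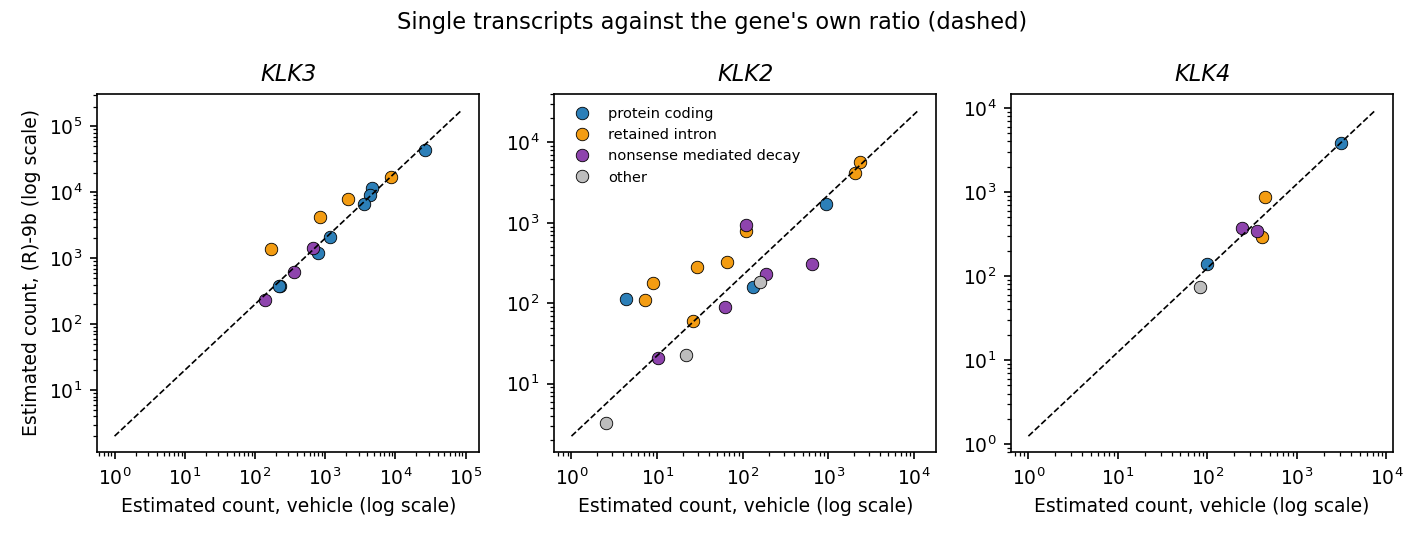
Estimated count of each transcript in the vehicle (x axis) and (R)-9b (y axis) libraries, both on log scales, for KLK3, KLK2 and KLK4, with points coloured by annotated class and a dashed line at the ratio of the gene's summed estimates. Several retained-intron transcripts of KLK3 and KLK2 lie above the line, among them KLK3-213 with 2138 and 8062, whereas a nonsense-mediated decay form of KLK2 with 638 and 310 lies below it.

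The kallikrein cluster, from the first to the last KLK gene, spans 265098 bases of chromosome 19 (50819148 to 51084245) and holds 25 annotated genes, of which 10 passed the minimum count. Among these 10 genes, 7 were higher in (R)-9b, 1 was lower and 2 had an interval that included 0, beside 29.8% higher and 31.1% lower over all genes tested. The 7 include KLK1 and KLK15, whose intervals only just cleared 0, and AC011523.1, whose estimated transcript count was 0 in both libraries. In the 200 kb on either side, 15 of 34 genes passed the minimum, and 8 were higher, 1 was lower and 6 had an interval that included 0. Of the 8, SYT3, SHANK1, SNORD88A and SIGLEC17P passed the minimum through (R)-9b alone. These genes and AC010325.1 were under the minimum with estimated transcript counts. The abundant neighbours of the cluster had smaller ratios than KLK2 and KLK3. C19orf48 had 30654 counts in vehicle and 27891 in (R)-9b, a log2 ratio of 0.10. CLEC11A had 1657 and 1838 counts (0.39), and CTU1 had 1765 and 1197 (-0.32). Larger ratios came from genes with few counts in vehicle, SHANK1 with 9 and 171 counts (4.49) and SIGLEC17P with 2 and 67 counts (5.30, 95% interval 3.40 to 8.38). The estimated transcript counts did not hold these differences, with 0 and 2 for SHANK1 and 0 in both libraries for SIGLEC17P.

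AC011523.1, a non-coding gene on the plus strand that runs antisense to KLK15 and ends 3826 bases before the start of KLK3, had 11 counts in vehicle and 37 in (R)-9b. Its log2 ratio was 1.99 (95% interval 0.99 to 3.11). It shares 0 exon bases with KLK15, and its estimated transcript count was 0 in both libraries. The kallikrein pseudogene KLKP1, between KLK2 and KLK4, had 141 and 201 counts, a log2 ratio of 0.75 (95% interval 0.43 to 1.07). KLK12 went the other way, from 31 counts in vehicle to 0 in (R)-9b. The exact 95% interval of its log2 ratio ended at -2.75, and it passed the minimum through the vehicle library alone. KLK7 had 5 and 3 counts, KLK13 had 2 and 3, and KLK8 and KLK9 were at 0 in both libraries. KLKB1, the plasma kallikrein gene on another chromosome, had 24 and 22 counts, a log2 ratio of 0.11 (95% interval -0.79 to 1.01).

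**Figure D4:**
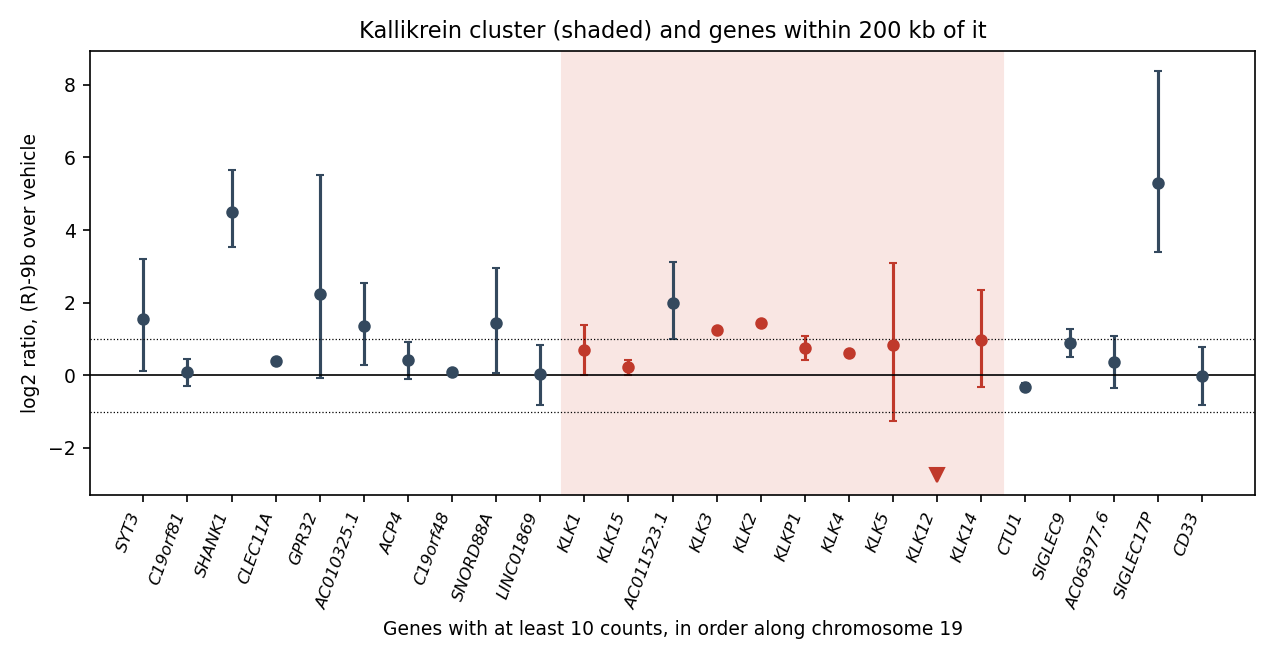
Log2 ratio of (R)-9b to vehicle (y axis, TMM-scaled) for the genes with at least 10 counts in and around the kallikrein cluster, in order along chromosome 19 (x axis), with exact 95% counting intervals. Red marks KLK genes, shading marks the cluster, dotted lines mark 2-fold, and the triangle marks the upper end of the interval of KLK12 (-2.75), which had 0 counts in (R)-9b. KLK3 (1.26) and KLK2 (1.44) stand above the abundant neighbours C19orf48 (0.10) and CTU1 (-0.32).

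Transcription factors known to act on kallikrein genes in prostate cells differed less between the libraries than KLK2 and KLK3, but not all differed less than KLK4. Of the 5 factors tested and reported here, 4 were higher and 1 was lower, beside 29.8% higher and 31.1% lower over all genes tested. Among genes with at least 10000 counts in both libraries, 44.5% were higher and 47.2% lower. SPDEF, with 7747 counts in vehicle, is not in that set. FOXA1, a pioneer factor that opens chromatin, was the lower one, with 28235 and 21524 counts and a log2 ratio of -0.15 (-0.18 to -0.13). HOXB13 had a log2 ratio of 0.52, GATA2 of 0.30, SPDEF of 0.70 and GRHL2 of 0.90. Both SPDEF and GRHL2 were above KLK4 (0.61). ERG was at 0 in both libraries.

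Other prostate genes did not all follow the abundant kallikreins. Of 10 genes for secreted or membrane proteins and androgen targets, 6 were higher, 2 were lower and 2 had an interval that included 0. The median log2 ratio was 0.25. Over all genes tested, 29.8% were higher and 31.1% lower. TMPRSS2, ST14, SLC45A3, FOLH1, STEAP2 and NDRG1 had at least 10000 counts in both libraries, where 44.5% of genes were higher and 47.2% lower. SLC45A3 (1.68) and FKBP5 (1.43) were near or above KLK2. MSMB, another seminal plasma protein, had 44 and 66 counts (0.82, 95% interval 0.25 to 1.41). With estimated transcript counts of 14 and 22 its interval included 0. TMPRSS2, a membrane serine protease gene under androgen control, had a log2 ratio of 0.17, whose interval included 0 with estimated transcript counts (0.03). ACP3, the prostatic acid phosphatase, was lower, with 1340 and 843 counts and a log2 ratio of -0.43, but its estimated transcript counts were 9.28 and 23.7 and gave a log2 ratio of 1.67 (95% interval 0.51 to 2.96), in the other direction. FOLH1, the membrane antigen PSMA, had a log2 ratio of -0.0037 (95% interval -0.02 to 0.01). Among 9 housekeeping genes 3 were higher and 4 lower, with a median of -0.06.

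The proteins that kallikreins cut were also examined. Of 15 listed substrates and receptors, 11 passed the minimum, of which 7 were higher, 3 were lower and 1 had an interval that included 0. The shares over all genes tested were 29.8% higher and 31.1% lower. SEMG1, the semenogelin cleaved by PSA, had 15 counts in vehicle and 55 in (R)-9b (log2 ratio 2.11, 95% interval 1.27 to 3.04). SEMG2 had 18 and 27 counts, with an interval that included 0. FN1 (fibronectin) had 367086 and 602099 counts (0.95), and IGFBP3, a carrier of insulin-like growth factor that PSA can cleave, had a ratio of 1.01. F2RL1, the protease-activated receptor PAR2 that several kallikreins can switch on, had 2177 and 2898 counts (0.65), and F2R had 0.94. BDKRB2, the bradykinin receptor downstream of KLK1, had 184 counts in vehicle and 5 in (R)-9b. Its log2 ratio was -4.96 (95% interval -6.60 to -3.72), and it passed the minimum through vehicle alone. BDKRB1 had 79 and 46 counts (-0.54), with an interval that ended just below 0. With estimated transcript counts of 10.8 and 23.2 the BDKRB1 ratio turned to 1.32 (95% interval 0.22 to 2.5). KNG1, which encodes the kininogen that KLK1 cuts, had 14 and 0 counts and a log2 interval that ended at -1.49, and passed the minimum through vehicle alone. Its estimated transcript counts, 5 and 0, were under that minimum.

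Genes for protease inhibitors gave 0 higher of 7 tested, 3 lower and 4 with an interval that included 0, where 29.8% of all genes tested were higher and 31.1% lower. Of the 3 lower, SERPINA1 and SERPINA3 passed the minimum through vehicle alone. SERPINA1 had 55 counts in vehicle and 2 in (R)-9b, a log2 ratio of -4.54 (95% interval -7.62 to -2.62). SERPINA3, whose product binds most of the PSA that circulates in blood, had 10 and 0 counts and a log2 interval that ended at -0.93. The estimated transcript counts of SERPINA3 were far higher, 380 and 155, and gave a log2 ratio of -1.04 (95% interval -1.32 to -0.77). SPINT1, an abundant inhibitor of membrane serine proteases, had 19852 and 14554 counts (log2 ratio -0.21, 95% interval -0.24 to -0.18). SPINT2 (-0.03) and SERPINB6 (-0.04) had intervals that included 0, and SERPINA5, the protein C inhibitor that binds PSA and the KLK2 product, had 4 and 8 counts.

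**Figure D5:**
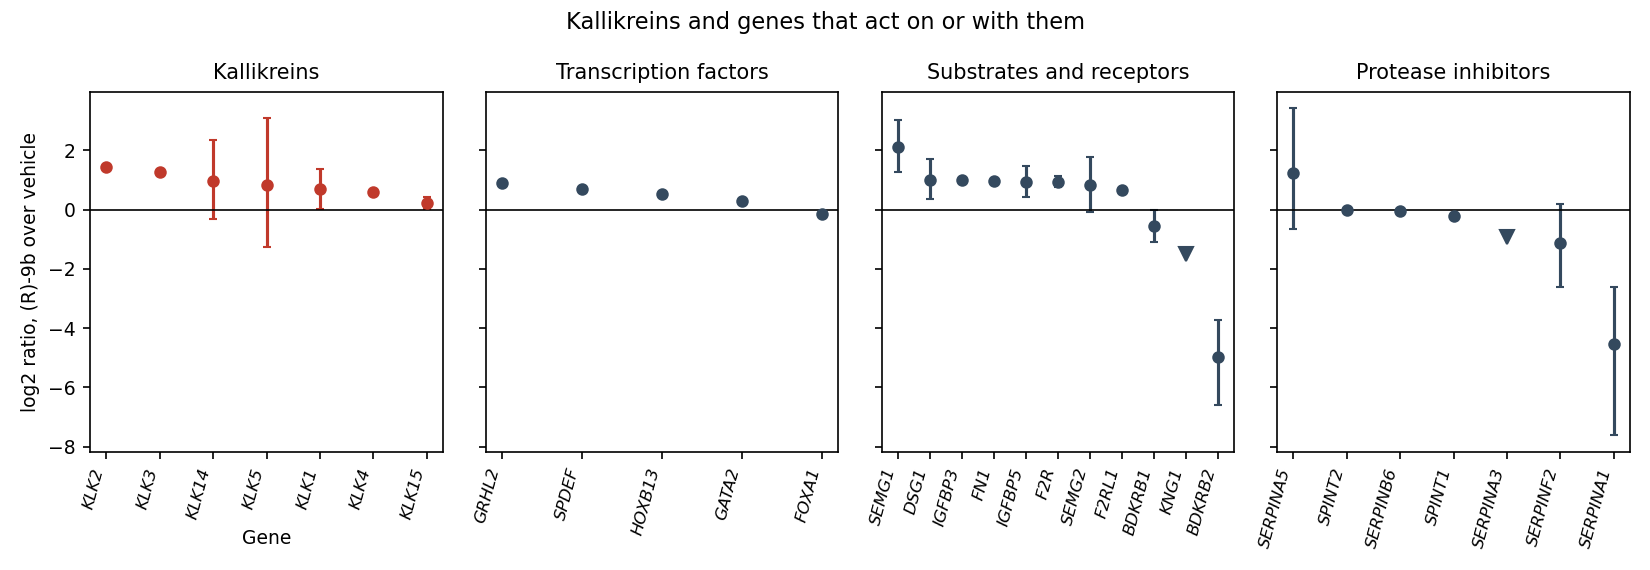
Log2 ratio of (R)-9b to vehicle (y axis) with exact 95% counting intervals for the tested kallikreins (red), transcription factors, substrates and receptors, and protease inhibitors (dark), each panel sorted by ratio along the x axis. Triangles mark the upper end of the interval of KNG1 (-1.49) and SERPINA3 (-0.93), which had 0 counts in (R)-9b. The 7 kallikreins shown, which leave out KLK12, lie between 0.22 and 1.44. Among genes with counts in both libraries, the lowest ratios belong to BDKRB2 (-4.96) and SERPINA1 (-4.54). Both of these genes passed the minimum through vehicle alone.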

How the data were processed

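C4-2B RNA was poly-A selected and sequenced as paired-end reads of 150 bases. The authors aligned the reads to GRCh38 (Ensembl annotation) with STAR and deposited gene counts of uniquely aligned, unambiguous reads, which are not normalized. Submitters' processing notes name STAR 2.5.1a, featureCounts 1.4.6-p5 and Salmon 0.8.2, whereas the paper names a later STAR version. The strand setting is not given in the sources used here. The authors also deposited CPM (count over library total), moderated log2 CPM, and a transcript table with estimated counts and CPM.

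The 200 repeated gene lines were dropped. Counts were scaled with TMM (edgeR 4.0.16, R 4.3.3), with factors of 1.02 for vehicle and 0.979 for (R)-9b. Exact 95% intervals were computed with scipy 1.17.1 under Python 3.11.15 for 23446 genes, each with 10 or more counts in the pair of libraries. No test of replicates was possible with 1 library per condition. Intervals cover counting error only and take each count as independent. PCR copies cannot be told apart and are not allowed for. Among genes with 1 to 20 counts, 72.2% (vehicle) and 70.3% ((R)-9b) of counts were even, as when both mates are counted. The intervals are too narrow in that case, so halved counts were an alternative. Other alternatives were total, DESeq2 1.42.0 and upper-quartile scaling, TMM without mitochondrially encoded genes, estimated transcript counts, deposited CPM and log2 CPM, 5 added counts, an added coefficient of variation of 0.1, and minimum counts of 1 and 50.

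Coordinates, exon lengths and overlaps are from GENCODE 29, which holds 58453 of the 60671 gene IDs. Lists of other KLK genes, transcription factors, inhibitors, substrates and receptors, prostate genes, markers and housekeeping genes were written, and the kallikrein genes chosen, with earlier results of these data known. All 10 members and the other KLK genes are named. From each list the largest and smallest ratios, some fixed genes and others with at least 10 counts are named, with genes nearest KLK2 and KLK3 in ratio and neighbours of the cluster. The scripts were tested on simulated counts. Some genes that this rule covers are not reported here.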

Additional observations from a re-analysis of the deposited data

How the results depend on the processing

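The log2 ratios of KLK2 (1.38 to 1.48), KLK3 (1.20 to 1.30) and KLK4 (0.55 to 0.64) kept their direction under all 10 alternatives, and their intervals stayed above 0 wherever one was computed. The deposited CPM and moderated log2 CPM, which have no TMM factor, gave the lowest values, 1.38 for KLK2, 1.20 for KLK3 and 0.55 for KLK4. For KLK1 the interval included 0 with total counts (0.63), DESeq2 size factors (0.66), halved counts (0.70), estimated transcript counts (0.79) and an added coefficient of variation of 0.1 (0.69). For KLK15 it included 0 with total counts (0.16), DESeq2 size factors (0.20), halved counts (0.22) and the added coefficient of variation (0.22), and estimated transcript counts turned the ratio to -0.12, for which the cause was not tested. The number of genes with an interval above 0 was therefore 3 in place of 5 under these 5 alternatives. The added coefficient of variation, which widens intervals by construction, left 1 gene in place of 2 wholly above 2-fold. A minimum of 50 counts, which leaves fewer genes, gave a median of 0.69. The share of the library in the 10 genes was 0.287% in vehicle and 0.701% in (R)-9b without mitochondrially encoded genes, and 0.308% and 0.691% with estimated transcript counts. Estimated transcript counts were also tried, after the values had been seen, for the 52 called genes of the other lists and the locus. Of these, 38 kept their call, 7 had too few estimated counts, 5 had an interval that included 0, and ACP3 (1.67) and BDKRB1 (1.32) reversed. The cause was not tested.

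No paired analysis was possible because each condition had 1 library, and leaving out a library gives no value. Depth limits KLK5, KLK6, KLK10, KLK11 and KLK14, whose differences were not detectable at these counts.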
